A study of Mus musculus with 4 samples.

Results

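The 10 genes described here encode alcohol dehydrogenases and the enzymes that make and remove retinoic acid: Adh1, Adh5, Adh6b, Adh7, Adhfe1, Rdh10, Aldh1a1, Aldh1a2, Aldh1a3 and Cyp26b1. They were found by symbol among 19938 genes with a probe set of their own, and all 10 were present. The set was chosen with results of these same arrays in view, so the differences and calls of these 10 genes are descriptions and support nothing beyond themselves. Total RNA of whole mouse skin at E17.5 was hybridised to 4 Affymetrix whole-transcript arrays, with RNA of 2 mice on each. The 2 control arrays hold skin of mice with the TRE-Ovol2-Flag transgene alone or of wild type mice, labelled as strain CB6F1. The 2 Ovol2 BT arrays hold skin of mice with TRE-Ovol2-Flag and K5-tTA, labelled as strain FVB/N, in which a keratin promoter of the basal epidermal layer drives the transactivator that turns on Ovol2, a zinc finger transcription factor of epithelia. All samples are labelled female. The growth notes call the mice littermates, which conflicts with the different strain labels, and the labels do not resolve this. As labelled, strain differs with genotype, and their shares in a difference cannot be told apart. The labels call the arrays of a group biological replicates, and with 2 arrays in a group the precision of each value is low.

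Vitamin A reaches cells as retinol. Alcohol dehydrogenases and short-chain dehydrogenases such as Rdh10 oxidise it reversibly to retinaldehyde, the Aldh1a enzymes oxidise retinaldehyde irreversibly to retinoic acid, and Cyp26 enzymes break retinoic acid down. In embryonic skin, the supply of retinoic acid bears on keratinocyte differentiation and on hair follicle growth. Not every member is a retinoid enzyme: Adh5 is chiefly a glutathione-dependent formaldehyde dehydrogenase, and Adhfe1 is a mitochondrial iron-dependent transhydrogenase of hydroxyacids. By the mouse reference annotation, Adh7, Adh1, Adh6a, Adh6b, Adh4 and Adh5 lie next to each other in this order in 1 cluster on chromosome 3, while the other members lie elsewhere.

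No promoter sequence was matched for Adhfe1, Adh6b, Rdh10 or Aldh1a3, so the motif search below does not cover these genes. RefSeq promoter sequences (GRCm38.p6) were matched for the other 6 of the 10 genes, with 8 start sites in all. Those of the cluster are shown because these neighbouring genes gave unlike differences between the groups. Each sequence is the 250 bases before a start site, 5′ to 3′ on the strand of the gene, and capitals mark TATAAA on either strand. The Adh1 window is chr3:138277335-138277584 on the plus strand, the Adh7 window is chr3:138217523-138217772 on the plus strand, and the windows of the upstream and downstream Adh5 starts are chr3:138436950-138437199 and chr3:138442843-138443092 on the plus strand.
Adh1: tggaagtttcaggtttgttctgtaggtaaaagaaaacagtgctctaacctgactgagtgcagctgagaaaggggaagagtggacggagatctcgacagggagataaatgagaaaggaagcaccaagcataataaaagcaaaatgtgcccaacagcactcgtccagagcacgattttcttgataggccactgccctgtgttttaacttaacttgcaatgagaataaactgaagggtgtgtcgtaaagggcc
Adh7: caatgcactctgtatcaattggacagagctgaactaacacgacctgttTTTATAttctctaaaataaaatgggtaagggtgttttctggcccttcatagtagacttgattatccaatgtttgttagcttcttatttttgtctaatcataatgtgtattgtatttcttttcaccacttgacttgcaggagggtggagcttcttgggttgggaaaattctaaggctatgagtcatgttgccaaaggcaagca
Adh5, upstream start: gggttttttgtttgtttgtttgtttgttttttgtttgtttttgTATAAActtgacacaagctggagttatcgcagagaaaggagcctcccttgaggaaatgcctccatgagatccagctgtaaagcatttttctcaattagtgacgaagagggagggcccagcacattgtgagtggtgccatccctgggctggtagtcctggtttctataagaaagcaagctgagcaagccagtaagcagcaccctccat
Adh5, downstream start: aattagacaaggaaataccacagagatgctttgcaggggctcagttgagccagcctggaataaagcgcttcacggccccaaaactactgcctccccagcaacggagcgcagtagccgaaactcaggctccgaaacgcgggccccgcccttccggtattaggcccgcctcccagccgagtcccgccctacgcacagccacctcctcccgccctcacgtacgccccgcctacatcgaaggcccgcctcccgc
The downstream Adh5 window was rich in G and C (63.6%) and held 21 CpG dinucleotides, against a median of 52.4% and 6 over all 32851 promoter windows. The other windows shown were poorer, with 44.8% and 5 CpG for Adh1, 38% and 1 for Adh7, and 45.2% and 2 for the upstream Adh5 start. Letters were searched on both strands. The letters AGGTCA, a core site of retinoid and other nuclear receptors, was in none of the 8 windows and in 14% of all windows. Its direct repeats with spacings of 1, 2 and 5 bases, AGGTCANAGGTCA, AGGTCANNAGGTCA and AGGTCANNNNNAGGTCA, each of which contains AGGTCA, were in none of the 8 and in 0.0335%, 0.00913% and 0.00913% of all windows. CCGTTA, the core letters bound by Ovol proteins, was in none of the 8 and in 2.18% of all windows. TATAAA was in 3 of the 8 (the upstream Adh5 start, Adh7 and Cyp26b1) and in 12.4% of all windows, at 207 to 202 bases before the Adh5 start and 202 to 197 bases before the Adh7 start, so neither copy lies at the usual place of a TATA box.

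Values are linear probe set intensities as deposited. Differences are Ovol2 BT minus control on the log2(intensity + 16) scale, from a limma fit over 14953 genes that left out the 25% of genes with the lowest mean, and a gene is called at an adjusted p under 0.05. The fit called 144 genes, 92 higher and 52 lower (63.9% higher). The split was 100 and 112 (47.2% higher) without control replicate 2. It also moved with the centring of the arrays: it was 110 and 108 (50.5% higher) with arrays centred on their median, 249 and 82 (75.2%) on fibroblast markers and 4614 and 61 (98.7%) on basal keratinocyte markers. The last 2 centrings moved the median difference of all genes from -0.04 to 0.11 and to 0.48, and a difference under them is to be read against that median. The variance estimate changed too: limma's prior degrees of freedom were 6.95 in the main fit and 11.1 with median centring. They were infinite under the last 2 centrings and without control replicate 2, where each gene took the variance shared by genes of its level. The counts called reflect this as well. Ovol2 itself had intensities of 360 and 161 in control replicates 1 and 2, against 4367 and 3893 in the Ovol2 BT replicates. Median intensities of the arrays were 123 to 132. Markers of skin were present: each measured marker of the basal keratinocyte, suprabasal keratinocyte and fibroblast lists exceeded an intensity of 300 on every array.

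The outstanding values among the 10 genes were a high Adhfe1 and a low Adh6b in Ovol2 BT skin. Adhfe1 was 8.69-fold higher and Adh6b 4.06-fold lower, and these 2 of the 9 tested members were called. Of all genes tested, 0.963% were called, 0.615% higher and 0.348% lower, and since the members were chosen on this comparison nothing is read from the count. Aldh1a2 was left out of the fit with the dimmest genes. Of the 10 genes, 3 had a higher mean in Ovol2 BT and 7 a lower one. With arrays centred on basal keratinocyte markers, the median difference of all genes was 0.48. Adh5 (0.10), Adh7 (0.46), Rdh10 (0.14) and Cyp26b1 (0.29) were then positive but below that median. On fibroblast markers Adh7 was at 0.09, where the median of all genes was 0.11.

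**Figure D1:**
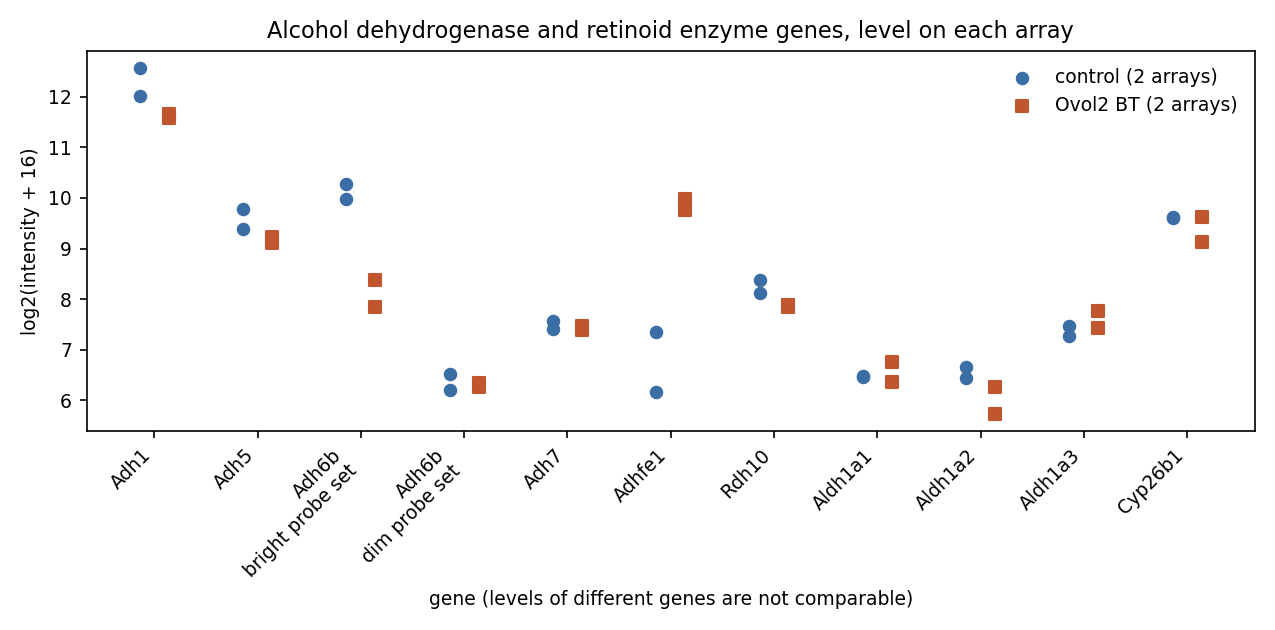
Level of each probe set of the 10 genes on each array, as log2(intensity + 16); circles are the 2 control arrays and squares the 2 Ovol2 BT arrays. The groups lie far apart for Adhfe1 (higher in Ovol2 BT) and for the bright Adh6b probe set (lower), and overlap for Adh7, Aldh1a1, Aldh1a3, Cyp26b1 and the dim Adh6b probe set.

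**Figure D2:**
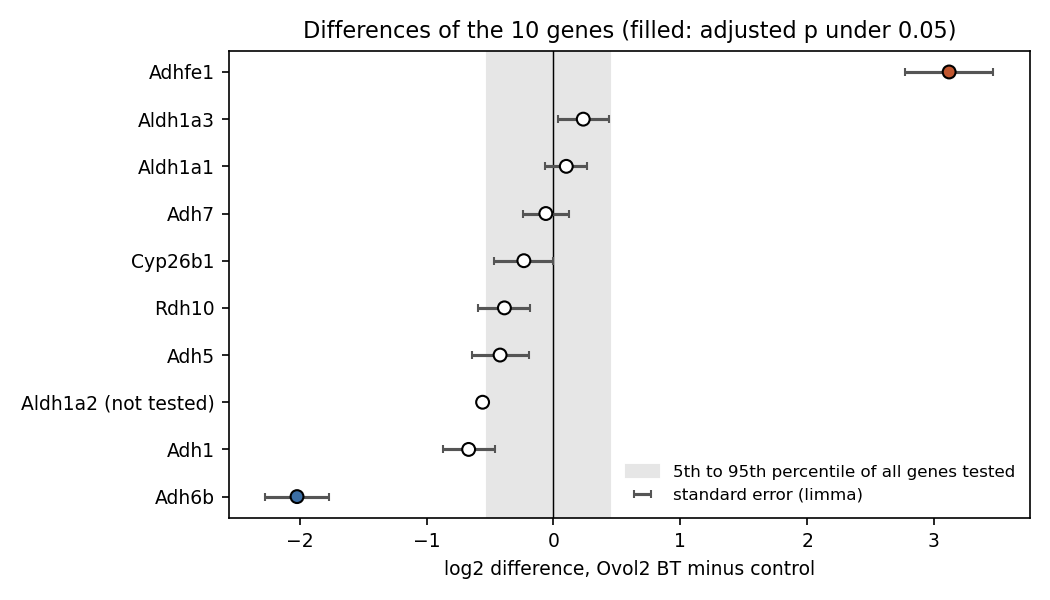
Log2 difference (Ovol2 BT minus control) of the 10 genes, with the limma standard error as bars; filled points were called, and the grey band spans the 5th to 95th percentile of all genes tested (-0.52 to 0.45). Adhfe1 at 3.12 and Adh6b at -2.02 lie far outside the band, and Aldh1a2 has no bar because it was not tested.

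Among the alcohol dehydrogenases of the cluster, the groups were separate in some genes and overlapped in others. Adh6b, a gene of the cluster beside Adh6a, had intensities of 1228 and 999 in control replicates 1 and 2 and of 214 and 317 in Ovol2 BT replicates 1 and 2. Both control arrays were high and both Ovol2 BT arrays low, with no overlap, and the difference was -2.02 (SE 0.25). Its rank was 13 from the lowest difference among the genes tested. Adh6b has a second, dimmer probe set, with intensities of 57.3 and 75.0 in the controls and of 64.6 and 60.4 in Ovol2 BT. On that probe set the groups overlapped and the difference was -0.06, and it was too dim to be tested. Both probe sets name Adh6b alone but through different transcript records, and they disagree. With the mean of the probe sets the difference was -1.04 (2.06-fold lower), still called. The positions of the probes were not analysed here, so signal from the neighbouring and related Adh6a cannot be told apart from that of Adh6b.

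Adh1, the class I enzyme that oxidises ethanol and retinol, had intensities of 6073 and 4111 in the controls and of 3230 and 3050 in Ovol2 BT. Both Ovol2 BT arrays were below both controls, but the controls differed from each other by 0.56 on the log2 scale, close to the difference between groups of -0.67 (SE 0.21). Adh1 was not called. Its difference was -0.95 without control replicate 2 and -0.39 without control replicate 1. Adh5, the formaldehyde-oxidising enzyme that also reduces nitrosoglutathione, had intensities of 869 and 658 in the controls and of 537 and 585 in Ovol2 BT. The groups did not overlap, the gap between the controls (0.39) was nearly as wide as the difference of -0.42 (SE 0.22), and Adh5 was not called. Adh7, the class IV enzyme of epithelia that is active on retinol, had intensities of 154 and 173 in the controls and of 152 and 161 in Ovol2 BT. These values overlapped, and the difference was -0.06 (SE 0.18, 95% interval from -0.47 to 0.35).

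Adh6a, the neighbour of Adh6b and no member of the set, had intensities of 407 and 298 in the controls and of 132 and 225 in Ovol2 BT (difference -0.95, SE 0.28, limma adjusted p = 0.248). Adh6a was called without control replicate 2 (-1.17, adjusted p = 0.0196) and without Ovol2 BT replicate 2 (-1.30, adjusted p = 0.0381). Leaving out Ovol2 BT replicate 1 gave -0.60. Adh4, between Adh6b and Adh5, was too dim to be tested, at 28.8 and 32.2 (control) and 28.0 and 37.0 (Ovol2 BT). In 4 of the 6 cluster genes (Adh1, Adh6a, Adh6b and Adh5) both Ovol2 BT arrays were below both controls as deposited. With arrays centred on basal keratinocyte markers, Adh5 was at 0.10 and the median of all genes at 0.48. Of all genes tested, 21.9% were lower without overlap. Of the 3 protein-coding genes on either side (Mttp, Trmt10a and 4930579F01Rik before Adh7, and Metap1, Eif4e and Tspan5 after Adh5), 1 of 6 was lower without overlap, Eif4e (-0.56, SE 0.27), and 0 were called by limma. The flanking genes were looked up after the values of the cluster had been seen.

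**Figure D3:**
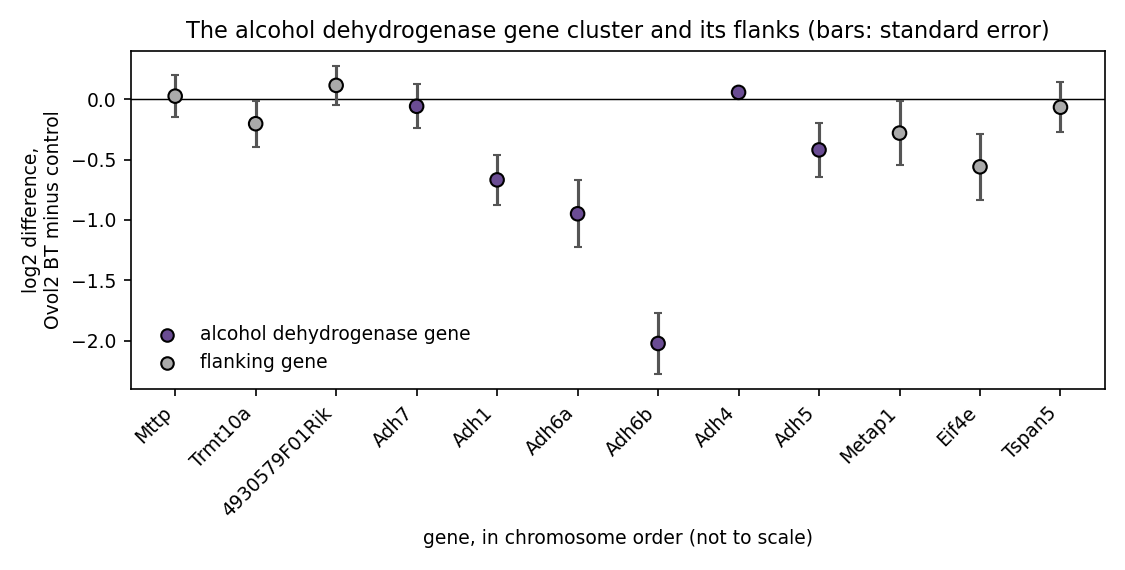
Log2 difference (Ovol2 BT minus control) of the 6 alcohol dehydrogenase genes of the cluster and 3 flanking genes on either side, in chromosome order and not to scale; bars are limma standard errors, and Adh4 has none because it was not tested. The lowest point is Adh6b at -2.02, next to Adh6a at -0.95 and Adh1 at -0.67, while Adh7 is at -0.06.

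Adhfe1, the mitochondrial transhydrogenase, had intensities of 147 and 55.6 in the controls and of 858 and 994 in Ovol2 BT. Both Ovol2 BT arrays were far above both controls, and the difference was 3.12 (SE 0.35), at rank 9 from the highest among the genes tested. The controls themselves differed by 1.19 on the log2 scale, the widest gap within a group among the 10 genes. The fold therefore depended on the control array: it was 13.1 without control replicate 1 and 5.76 without control replicate 2. Of the 6 protein-coding genes flanking Adhfe1 in chromosome order (3 on either side), 3 were bright enough to be tested and 0 were called by limma. Of these 6, 0 were higher without overlap and 2 were lower without overlap, Rrs1 (-0.84, SE 0.19) and the untested Mybl1 (-0.55), beside 20.4% higher and 21.9% lower over all genes tested.

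Fat cell markers were higher in Ovol2 BT, as was Adhfe1, but they did not follow Adhfe1 throughout within the groups. Of the 20 measured adipocyte markers, 20 had higher values in Ovol2 BT and 12 were called, with a median difference of 2.08 against -0.04 for all genes. Their intensities summed to 22957 and 15139 on the control arrays, against 56399 and 51621 on those of Ovol2 BT. The markers with the smallest p were the lipid droplet genes Cidea (3.14) and Plin4 (2.32) and the gluconeogenic gene Pck1 (3.09). No marker was below an intensity of 16 on all arrays, but this also held for every gene tested. The filter used the mean of all 4 arrays, and the lowest marker value was 25.7, for Pck1 in control replicate 2. The mean log2 level was 9.27 and 8.49 in control replicates 1 and 2, so the control with the lower Adhfe1 also had the lower fat markers. It was 10.94 and 10.80 in Ovol2 BT, where replicate 2 had the higher Adhfe1 (994 against 858) and the lower fat markers. Of the brown adipocyte markers 8 of 9 tested genes had higher values and 5 were called, led by Cidea, Ucp1 (2.31) and Cox7a1 (3.14) (median 2.01), with sums of 1641 and 1289 (control) and 6946 and 4764 (Ovol2 BT). The part of fat cells in the Adhfe1 difference was not tested. In whole skin, fewer or more cells of a type and less or more RNA per cell cannot be told apart.

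Markers of the epidermis and hair follicle were lower in Ovol2 BT, as was Adh6b, but they did not follow Adh6b throughout within the groups. Within Ovol2 BT, Adh6b was lower on replicate 1 (214 against 317), where the sums of these lists were higher. Within the controls it was lower on replicate 2 (999 against 1228), where the keratinocyte sums were lower and the follicle sum higher. The basal keratinocyte list had intensity sums of 27131 and 24725 on control arrays, against 14870 and 12683 on Ovol2 BT arrays (9 of 10 genes with lower values, 3 called, median -0.31). The suprabasal keratinocyte list stood at 50627 and 41009 against 39325 and 36652 (9 of 9 genes with lower values, 1 called, median -0.28), and the hair follicle list at 12803 and 13400 against 10429 and 9259 (10 of 12 genes with lower values, 3 called, median -0.91). Liver markers, listed because Adh1 and retinol transport genes are abundant in liver, were lower too: the sum was 7801 and 3498 on control arrays and 2773 and 2549 on Ovol2 BT arrays (6 of 7 tested genes with lower values, 1 called, median -1.45). The control array with the higher Adh1, replicate 1, was also the one with the higher liver sum. The liver marker Alb went the other way, at 305 in control replicate 1 and 865 in control replicate 2. Both keratinocyte sums were also higher on control replicate 1, and the hair follicle and fibroblast sums were lower on it. The fibroblast list was level, with sums of 41295 and 42481 (control) and 41833 and 41554 (Ovol2 BT), with a median of 0.01. No marker of these lists was below 16 on all arrays, which also held for every gene tested. The part of these lists in the Adh6b and Adh1 values was not tested. The markers called lower with the smallest p were the keratin genes Krt15 (-2.29), Krt5 (-1.10) and Krt14 (-1.24), the transglutaminase gene Tgm3 (-1.89), the follicle genes Lhx2 (-1.83), Msx2 (-1.24) and Edar (-1.22) and the albumin gene Alb (-2.63). Dermal papilla markers had 10 of 10 lower values, 9 of them without overlap, a median of -0.59 and 0 called by limma (7 lower at an unadjusted p under 0.05). Of all 14953 genes tested, 8309 had lower and 6644 higher values, and 21.9% were lower without overlap. At an unadjusted limma p under 0.05, 785 of them were lower and 765 higher. Of the melanocyte markers 9 of 10 had lower values (median -0.40) and 1 was called, the pigment gene Tyr (-1.15). Endothelial and skeletal muscle markers had 10 of 10 higher values each (medians 0.23 and 0.33), immune markers 8 of 10 (median 0.24) and Schwann cell and nerve markers 2 of 6 tested (median -0.23), with 0 called by limma in these 4 lists and 2 muscle and 2 immune genes higher at an unadjusted p under 0.05.

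**Figure D4:**
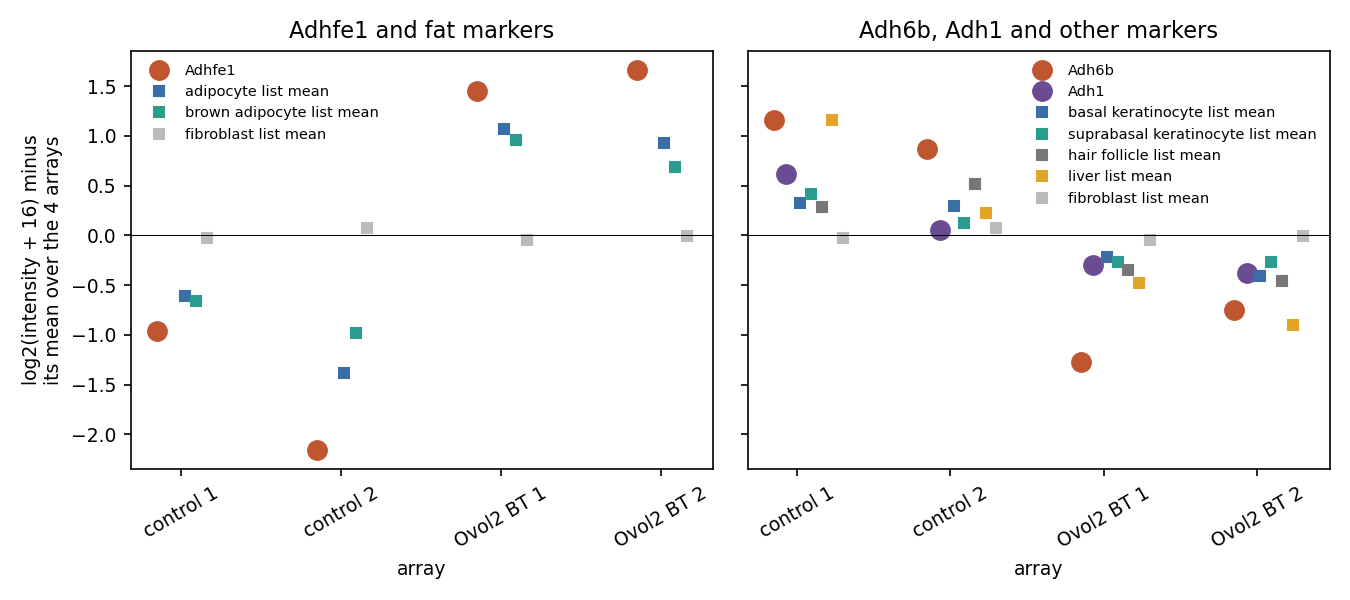
Levels of Adhfe1 (left) and of Adh6b and Adh1 (right) on each array, beside the mean level of marker lists, as log2(intensity + 16) minus the mean over the 4 arrays; circles are genes and squares are list means. Adhfe1 and both fat lists are lowest on control replicate 2 and high on both Ovol2 BT arrays, Adh6b lies below its mean on both Ovol2 BT arrays with the keratinocyte, hair follicle and liver lists, and the fibroblast list stays near 0.

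Of the enzymes that make retinaldehyde and retinoic acid, Rdh10 and Aldh1a2 had separate groups, lower in Ovol2 BT, and Aldh1a1 and Aldh1a3 had groups that overlapped. Rdh10, the short-chain dehydrogenase that supplies most retinaldehyde in the embryo, had intensities of 316 and 262 in the controls and of 213 and 220 in Ovol2 BT. Its groups did not overlap, but the difference of -0.39 (SE 0.20) was not called. Aldh1a1 had intensities of 71.4 and 72.9 in the controls and of 66.5 and 92.5 in Ovol2 BT. The controls lay between the Ovol2 BT arrays, and the difference was 0.10 (SE 0.17, 95% interval from -0.28 to 0.48). Aldh1a2, the main retinoic acid producing enzyme of embryonic mesenchyme, was dim, with intensities of 85.5 and 70.7 in the controls and of 37.0 and 60.6 in Ovol2 BT. Both Ovol2 BT arrays were below both controls, and the difference of -0.56 was not tested because the gene fell among the lowest 25% by mean level. Aldh1a3 had intensities of 161 and 137 in the controls and of 157 and 202 in Ovol2 BT, which overlapped (difference 0.24, SE 0.20, 95% interval from -0.22 to 0.69).

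Cyp26b1, which oxidises retinoic acid to inactive products, had intensities of 769 and 759 in the controls and of 773 and 543 in Ovol2 BT. Replicate 1 of Ovol2 BT lay just above the controls and replicate 2 below them, so the groups overlapped. The difference was -0.23 (SE 0.23, 95% interval from -0.76 to 0.30), and it was 0.02 without Ovol2 BT replicate 2. Across all 10 genes the groups were separate for 6, and 5 of these were among the 9 tested. Adhfe1 was higher, and Adh6b, Adh1, Adh5, Rdh10 and Aldh1a2 were lower. Under basal keratinocyte centring Adh5 (0.10) and Rdh10 (0.14) were positive, but below the median of all genes there (0.48). Of all genes tested, 42.3% had groups that did not overlap, 20.4% with Ovol2 BT higher and 21.9% with it lower.

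The other genes of retinoid handling and of the dehydrogenase families were taken from lists drawn up for this set, 8 lists with 87 measured genes, of which 73 were tested. Of these, 3 were called higher and 0 lower by limma, beside 0.615% and 0.348% of all genes. At an unadjusted limma p under 0.05, 9 were higher and 6 lower, beside 765 higher and 785 lower of all 14953 genes tested. The median difference of the 73 genes was 0.00 against -0.04 for all genes. The differences of Adh6a, Cyp2s1, Rdh1, Ttr and Dhrs3 depended on which array was left out, as given with each gene.

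Among genes of retinol transport and retinoid binding, 0 of 8 tested were called by limma, with 0 higher and 3 lower at an unadjusted p under 0.05, and the median difference was -0.43. That median was -0.11 without control replicate 1 and -0.63 without control replicate 2. With arrays centred on basal keratinocyte markers it was 0.10, against 0.48 for all genes. Crabp2, which carries retinoic acid to its nuclear receptors, had intensities of 659 and 537 in the controls and of 400 and 295 in Ovol2 BT (difference -0.76, SE 0.24, adjusted p = 0.285). Fabp5, a fatty acid binding protein of keratinocytes that can also bind retinoic acid, stood at 5312 and 3969 against 3002 and 3134 (-0.58, SE 0.19, adjusted p = 0.313). Both genes had separate groups and were not called in this fit. Ttr, the plasma carrier that travels with retinol binding protein and also a liver marker here, was at -0.87 (SE 0.24, adjusted p = 0.205). Its difference was -1.16 without control replicate 2 and -0.58 without control replicate 1. Rbp2, a cellular retinol binding protein, was at -0.64 (SE 0.31, adjusted p = 0.529), with control replicate 1 at 1825 and the other arrays at 771 to 902. Rbp4, the plasma retinol carrier, was at 0.36 (SE 0.21, adjusted p = 0.593). Stra6, the receptor that takes up retinol, was at 0.27 (SE 0.19, adjusted p = 0.643), and Crabp1, another retinoic acid binding protein, at -0.28 (SE 0.23, adjusted p = 0.686).

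Of the genes that store retinol as esters or take up carotenoids, 1 of 3 tested was called. Dgat1, which makes triacylglycerol and can also esterify retinol, had intensities of 539 and 370 in the controls and of 1974 and 1402 in Ovol2 BT. It rose by 1.86 (SE 0.26, adjusted p = 0.0127), on arrays on which the fat markers above were also higher, and the part of fat cells in its difference was not tested. Lrat, the dedicated retinol esterifying enzyme, showed overlapping values (0.09, SE 0.17, adjusted p = 0.863), and the lipoprotein receptor Scarb1 was at 0.58 (SE 0.20, adjusted p = 0.347).

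Of the other retinol and retinal oxidoreductases, 0 of 18 tested were called by limma (2 higher and 2 lower at an unadjusted p under 0.05), with a median of -0.01. Dhrs3, which reduces retinaldehyde back to retinol and is itself induced by retinoic acid, stood at 1068 and 608 in the controls, against 1589 and 1134 in Ovol2 BT. Its groups were separate, with a wide gap within each, and its difference of 0.72 (SE 0.29) had an adjusted p of 0.442. The difference of Dhrs3 was 1.12 without control replicate 1 and 0.32 without control replicate 2. The aldehyde oxidase Aox1 was at 0.49 (SE 0.15, adjusted p = 0.269), the dehydrogenase Rdh1 at -0.67 (SE 0.29, adjusted p = 0.476), and Aldh1a7, a close relative of Aldh1a1, at -0.38 (SE 0.18, adjusted p = 0.517). Rdh1 stood at 501 in control replicate 1 and at 213 to 258 on the other arrays. Its difference was -1.13 without control replicate 2 and -0.22 without control replicate 1.

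Among the degrading enzymes besides Cyp26b1, 0 of 2 tested were called by limma, with 0 at an unadjusted p under 0.05. Cyp26c1 was at 0.26 (SE 0.16, adjusted p = 0.609), and Cyp26a1, with intensities of 8.99 to 28.9 over the 4 arrays, was too dim to be tested. Cyp2s1, a cytochrome of epithelia, stood at 563 in control replicate 1 and at 242 to 269 on the other arrays (-0.64, SE 0.31, adjusted p = 0.535). Its difference was -1.15 without control replicate 2 and -0.13 without control replicate 1.

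Of the nuclear receptors and their coregulators 0 of 11 were called by limma, with 1 higher and 0 lower at an unadjusted p under 0.05 and a median of -0.04. That gene was Rxrg, a partner receptor found in muscle and fat among other tissues, at 341 and 283 in the controls, against 543 and 517 in Ovol2 BT (0.74, SE 0.21, adjusted p = 0.241). The receptors of epidermis overlapped or lay close together: Rxra was at -0.23 (SE 0.21, adjusted p = 0.716), Rarg at -0.23 (SE 0.21, adjusted p = 0.721) and Rara at -0.21 (SE 0.21, adjusted p = 0.742). Rarb, a receptor that is also a direct target of retinoic acid, was at 0.34 (SE 0.20, adjusted p = 0.586).

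Genes known to respond to retinoic acid were called in 0 of 11 cases by limma (2 higher and 1 lower at an unadjusted p under 0.05). Of the 11 tested, 8 had a higher mean in Ovol2 BT and 3 a lower one, and the median difference was 0.27 against -0.04 for all genes. That median was 0.09 without Ovol2 BT replicate 2. The genes with the smallest p were Crabp2, given above, Rarres2, which encodes the adipokine chemerin (0.62, SE 0.23, adjusted p = 0.396), Dhrs3 and the transglutaminase gene Tgm2 (0.41, SE 0.22, adjusted p = 0.555). This list shares the tested genes Crabp2, Stra6, Lrat, Dhrs3 and Rarb with the lists above, and also the untested Cyp26a1.

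Among the other aldehyde dehydrogenases, 2 of 14 tested were called, both higher. Aldh1l1, a cytosolic folate enzyme, had intensities of 119 and 60.9 in the controls and of 401 and 365 in Ovol2 BT, and rose by 1.97 (SE 0.27, adjusted p = 0.0118). As with Adhfe1, control replicate 2 was the lowest array. Aldh6a1, a mitochondrial enzyme of valine breakdown, had intensities of 258 and 271 in the controls and of 729 and 719 in Ovol2 BT, and rose by 1.40 (SE 0.20, adjusted p = 0.0155). Its arrays lay close together within each group, and the difference was 1.37 to 1.43 with any 1 array left out. The fat markers were higher on the same arrays, and their part in these differences was not tested. Aldh2, the mitochondrial enzyme that clears acetaldehyde, overlapped between groups (0.21, SE 0.26, adjusted p = 0.789). Aldh3b1 was at 0.58 (SE 0.22, adjusted p = 0.421) and Aldh1l2, the mitochondrial relative of Aldh1l1, at -0.43 (SE 0.21, adjusted p = 0.516).

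Of the enzymes of formaldehyde, folate and hydroxyacid handling that act near Adh5 and Adhfe1, 0 of 11 tested were called by limma (0 higher and 1 lower at an unadjusted p under 0.05), with a median of -0.08. Bdh1, which interconverts ketone bodies, was at -0.63 (SE 0.23, adjusted p = 0.408). Esd, which completes the glutathione-dependent oxidation of formaldehyde begun by Adh5, was at -0.37 (SE 0.24, adjusted p = 0.618), and the folate enzymes Shmt1 and Mthfd1 were at -0.42 (SE 0.21, adjusted p = 0.542) and -0.40 (SE 0.21, adjusted p = 0.557).

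**Figure D5:**
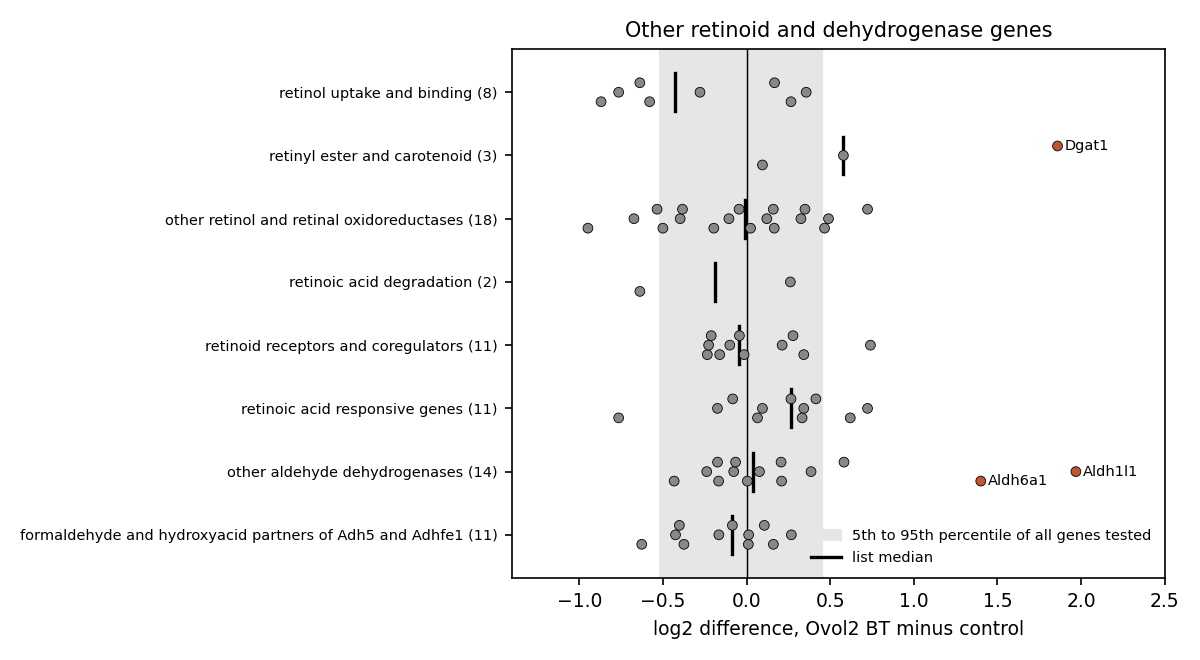
Log2 difference (Ovol2 BT minus control) of each tested gene of the 8 lists, with the number tested in brackets; black bars are list medians, red points were called, and the grey band spans the 5th to 95th percentile of all genes tested. The 3 called genes, Dgat1, Aldh1l1 and Aldh6a1, lie at 1.40 to 1.97, while list medians run from -0.43 to 0.58.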

How the data were processed

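Gene expression was measured on 4 arrays of E17.5 mouse skin, grouped by the sample titles (2 control, 2 Ovol2 BT). The deposited table gives a linear intensity for each probe set. Per the submitters' processing notes, the authors used PLIER 2.0 and Affymetrix Expression Console 1.1.1. How background was corrected and arrays were normalized, and the genome build, is not given in the sources used here. The platform annotation names 1 gene for 21789 of 35557 probe sets (19938 genes). It names several genes for 1621 and none for 12147, and these were not tested. Of the 21789, 21698 matched the mouse reference table by Entrez ID, with 0 symbols changed. The 10 genes have 11 probe sets. Where a gene had several probe sets, the brightest by mean was used. Differences of log2(intensity + 16), which understate changes of dim genes, were fitted over 14953 genes (the lower 25% left out) with limma 3.58.1 in R 4.3.3 (variance trend, two-sided, Benjamini-Hochberg adjustment) and checked on simulated data. Where an array is left out, the lone array of its group is assumed to vary like the others. Members and lists were chosen with earlier results of these data known. Named list genes were those called, the 4 with the smallest p of each list and 16 fixed genes. Protein sequences and probe positions were not analysed here. Alternatives were 2 other pseudocounts, other filters, scalings, variance models, probe set rules, a replicate block, each array left out and a threshold of 0.10.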

Additional observations from a re-analysis of the deposited data

How the results depend on the processing

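Adhfe1 and Adh6b were called under all 18 alternatives run. In the alternatives with 1 value per gene, their differences were 2.53 to 3.72 and -2.29 to -1.04. With each probe set on its own, Adh6b was called through the brighter probe set alone (-2.02), and the dimmer one (-0.06) was not tested. All genes called numbered 144, and 218, 331 and 4675 with arrays centred on their median, on fibroblast markers and on basal keratinocyte markers, 652 with the replicate number as a block, and 209 to 366 with 1 array left out. The members called numbered 2, but 4 under basal keratinocyte centring, which adds Aldh1a1 and Aldh1a3, and 2 to 3 with 1 array left out, where Adh1 was added without control replicate 2. The genes of the 8 lists called numbered 3, but 31 under basal keratinocyte centring, 10 with the block, and 3 to 7 with 1 array left out. Basal keratinocyte centring raises every difference by the same amount, and keratinocyte markers were themselves lower in Ovol2 BT. Under both marker centrings, and without either control array, the prior degrees of freedom of limma were infinite, against 6.95 in the main fit. Each gene then took the variance shared by genes of its level and not its own. The calls of these fits reflect that change as well, and genes called only there are not read as differences. The labels do not say that a replicate number marks a shared litter, day or batch. Across genes, arrays of the same number deviated from their group means with a correlation of 0.41, and the block gave 315 higher and 337 lower genes and added Adh1 to the members called. Among the list genes it added Ttr (adjusted p = 0.0104), Crabp2 (0.0204), Rxrg (0.0249), Dhrs3 (0.025), Scarb1 (0.0408), Fabp5 (0.0445) and Adh6a (0.047). No called gene of the text changed sign under any alternative, but some marker genes lost their call: Krt5 (adjusted p = 0.0525), Krt14 (0.0523), Tyr (0.0808) and Alb (0.0561) without a variance trend, and Edar under basal keratinocyte centring (0.0502) and without Ovol2 BT replicate 2 (0.0553). The calls of Aldh1l1 could not be set against the filter on the lower 50% of genes, which leaves it out. The files hold no detection calls, so how far dim genes such as Aldh1a2 stand above background is unknown.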
